A study of Homo sapiens with 4 samples.

Results

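FOXK2 ChIP-seq peaks at the heat shock and DNAJ chaperone genes were examined in OVCAR5 cells, an established ovarian cancer cell line that the labels describe as high-grade serous. A peak belonged to the set when the nearest gene named beside it in the deposited list was HSF1 or had a symbol of the HSP90A, HSPA, HSPB, HSPD, HSPE, HSPH, DNAJA, DNAJB or DNAJC series. The ER chaperones HSPA5, DNAJB9, DNAJB11, DNAJC3 and DNAJC10 were left out. This gave 44 of 12471 peaks in replicate 1 and 83 of 27281 peaks in replicate 2, which named 50 of the 14631 genes found in either list. The study pulled down FOXK2 with its antibody in 2 biological replicates of a single condition, cells at passage 4 to 6, and paired each with an input library. The 2 input libraries were not analysed here. Peaks had been called separately in each replicate on hg38 with a fixed width of 210 bp (replicate 1) or 256 bp (replicate 2). Only the peak lists of this single condition were compared, so shares are given with Wilson 95% intervals, which cover counting error only, beside the same share over every peak or gene. Each peak carries a score, which was ranked only within its own list and is given as a percentile of that list.

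Heat shock proteins are molecular chaperones that keep other proteins folded, and HSF1 is the transcription factor that induces many of them when unfolded proteins accumulate in the cytosol. HSP70 proteins (HSPA genes) bind exposed stretches of a client and release them in an ATP-driven cycle. J proteins (DNAJ genes) deliver the client and start ATP hydrolysis, and HSP110 (HSPH1) exchanges the nucleotide. HSP90 matures kinases and steroid receptors, HSP60 and HSP10 (HSPD1 and HSPE1) form the folding chamber of mitochondria, and the small heat shock proteins (HSPB genes) hold unfolded clients without ATP. FOXK2 is a forkhead factor, and the forkhead heptamer TGTTTAC is the site named for it by the study. HSF1 binds heat shock elements, which are inverted repeats of the unit GAA.

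The promoter stretches that both replicates covered are shown first for the pairs of promoter peaks, assigned to the same gene in both lists, with the highest mean score percentile, since the best-ranked pair of the set, that of HSP90AA1, is among them. Each is the part common to both peaks that lies before the assigned start and outside annotated exons, read 5′ to 3′ on the strand of the gene from hg38. Capitals mark TGTTTAC, its first 6 letters TGTTTA, or a heat shock element of 2 units. The stretches are chr14:102139751-102139843 (minus strand) for HSP90AA1, chr2:219279108-219279229 (plus) for DNAJB2, chr5:138575714-138575924 (minus) for HSPA9 and chr6:31827444-31827481 (plus) for HSPA1B.
HSP90AA1: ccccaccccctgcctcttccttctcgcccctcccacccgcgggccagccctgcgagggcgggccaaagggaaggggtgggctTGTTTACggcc
DNAJB2: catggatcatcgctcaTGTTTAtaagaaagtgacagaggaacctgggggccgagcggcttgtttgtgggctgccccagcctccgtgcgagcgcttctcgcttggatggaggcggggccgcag
HSPA9: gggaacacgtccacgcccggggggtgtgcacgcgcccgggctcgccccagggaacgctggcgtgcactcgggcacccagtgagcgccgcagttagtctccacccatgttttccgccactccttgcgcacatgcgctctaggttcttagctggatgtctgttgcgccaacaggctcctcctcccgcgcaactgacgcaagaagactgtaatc
HSPA1B: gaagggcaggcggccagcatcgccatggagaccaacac
The full heptamer stood in the HSP90AA1 stretch, the DNAJB2 stretch held its first 6 letters, and no marked letters occurred in the stretches of HSPA9 and HSPA1B.

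The next windows carry the heptamer, in capitals and with 10 bases to each side, at peaks that overlapped between the replicates. They are read in the direction in which the heptamer is TGTTTAC and come from chr14:102139745-102139771 (minus) for HSP90AA1, chr10:116771642-116771668 (plus) for HSPA12A, chr10:67838192-67838218 (plus) for DNAJC12, chr1:65264685-65264711 (plus) for DNAJC6, chr9:33027067-33027093 (plus) for DNAJA1 and, for DNAJB6, chr7:157352759-157352785 (minus) and chr7:157352847-157352873 (plus).
HSP90AA1: ggggtgggctTGTTTACggcccgactg
HSPA12A: cctgccagcaTGTTTACcaggagccca
DNAJC12: tctcattggcTGTTTACagagaagaaa
DNAJC6: ttggaatttgTGTTTACgtctgccttc
DNAJA1: tttaaatgctTGTTTACatgttggtat
DNAJB6: cttccatggtTGTTTACagatgatgct
DNAJB6: aaccacggctTGTTTACgataaacacc
The HSP90AA1, DNAJC12 and DNAJC6 sites lay at promoters, and the others in introns. Further heptamers at overlapping peaks, of DNAJC5B, DNAJC21, HSF1 and HSPA4, are not shown.

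**Figure D1:**
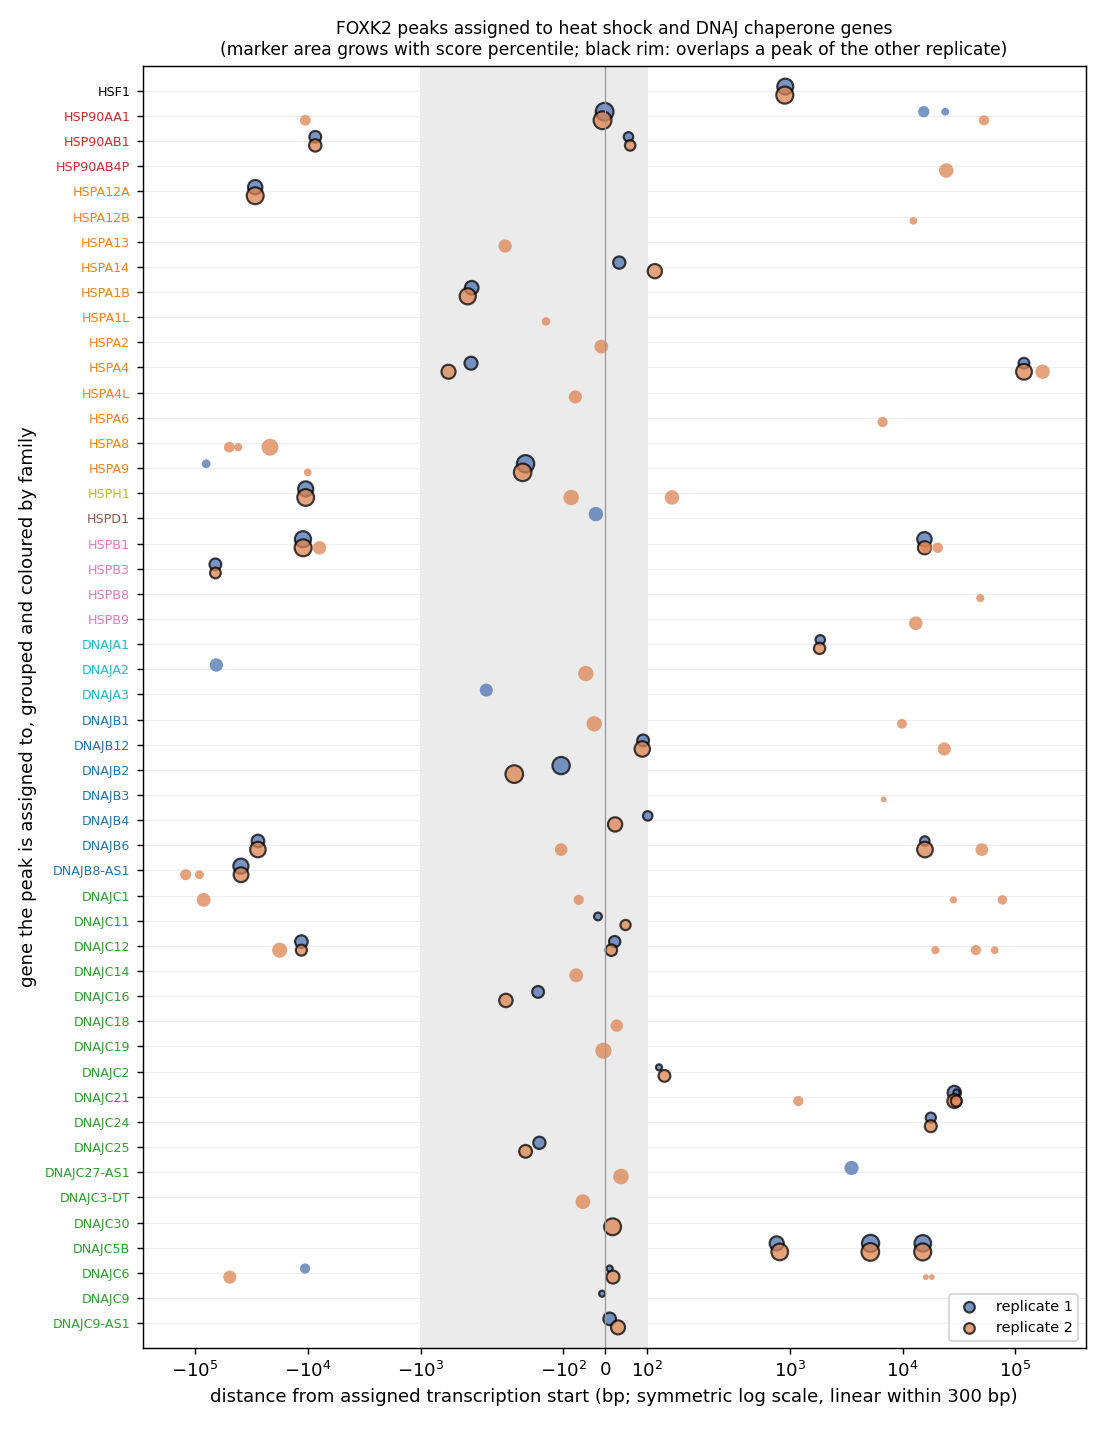
Distance of each peak from its assigned transcription start (x axis, bp, symmetric log scale) for the 50 genes (y axis, grouped and coloured by family), with replicate 1 in blue and replicate 2 in orange. Marker area grows with the score percentile, a black rim marks overlap with a peak of the other replicate, and the grey band runs from 1000 bp before to 100 bp after the start. The largest rimmed markers inside the band are those of HSP90AA1, HSPA9 and DNAJB2.

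Peaks were assigned to 32 of these 50 genes in replicate 1 (64%) and 47 in replicate 2 (94%), beside 57.1% and 94.9% of all genes named in either list. A peak in both replicates was found for 29 of the 50 genes (58%, Wilson 95% interval 44.2% to 70.6%), against 52.0% of all genes named in either list, which lies inside that interval. With fewer peaks the order turned, to 14 of 36 genes (38.9%, 24.8% to 55.1%) beside 51.5% in the higher-scoring part of each list and 20 of 42 (47.6%, 33.4% to 62.3%) beside 59.9% with lists of equal length, and both intervals held the share of all genes. In the full lists DNAJA3, DNAJC9 and HSPD1 had peaks in replicate 1 alone and 18 genes in replicate 2 alone. For 26 of the 29 genes (89.7%) the peaks themselves overlapped by at least 1 bp, beside 89.1% of all genes with a peak in both lists. The remaining 3 were DNAJA2 and DNAJC27-AS1, whose peaks lay at different places in each replicate, and DNAJC9-AS1, whose partner peaks were assigned to neighbouring genes.

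Promoters took a larger part of these peaks than of the lists as a whole. The promoter class of the deposited annotation held 17 of 44 peaks in replicate 1 (38.6%, 25.7% to 53.4%), beside 21.7% of all peaks. In replicate 2 it held 30 of 83 (36.1%, 26.6% to 46.9%), beside 18.0% of all peaks, so both intervals lay above the share of the whole list. In the higher-scoring part of the replicate 1 list the share was 7 of 19 (36.8%, 19.1% to 59%), an interval that held the 25.6% of all peaks there. The median distance from the assigned start was 2702 bp in replicate 1 and 9879 bp in replicate 2, against 16139 bp and 20161 bp over all peaks. Sequence around the centres was also richer in G and C, with a median GC content of 55.2% and 53.2% against 47.3% and 46.3%. Introns held 10 and 29 of the peaks (22.7% and 34.9%, beside 39.0% and 40.6% of all peaks) and intergenic regions 13 and 20 (29.5% and 24.1%, beside 34.1% and 36.5%).

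The share of peaks that overlapped between replicates had intervals that held the share of the whole list in both replicates. Of the 44 peaks in replicate 1, 36 overlapped a replicate 2 peak (81.8%, 68.0% to 90.5%), beside 74.9% of all peaks. Of the 83 peaks in replicate 2, 36 overlapped a replicate 1 peak (43.4%, 33.2% to 54.1%), beside 34.2%. With both lists limited to the same number of highest-scoring peaks, the share was 50% in replicate 1 (35.8% to 64.2%). It was 59.5% in replicate 2 (43.5% to 73.7%). All peaks then stood at 60.0% in both, above the set, and both intervals held that share.

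Score ranks of the set were near the middle of each list. The median percentile was 44.2 in replicate 1, where the whole list had 49.1, and 50 in replicate 2, the median of that list too. Its promoter peaks had medians of 42.6 and 58.3, below the 59.7 and 64.1 of all promoter peaks, and 4 of 44 and 6 of 83 peaks were at or above the 90th percentile (9.09% and 7.23%, beside 10.1% of each whole list). The 6 such peaks of replicate 2 all overlapped a replicate 1 peak, as did 91.0% of all such peaks of that list. Peaks of the set that overlapped between replicates had medians of 44.2 and 60.7, below the 59.7 and 77.9 of all overlapping peaks. Over the 37 overlapping pairs that involve a gene of the set, percentiles correlated with a Spearman's rho of 0.771, beside 0.852 over all 9343 pairs, which is a description across peaks of the same libraries. Paired centres were 26 bp apart in the median, beside 29 bp over all pairs.

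**Figure D2:**
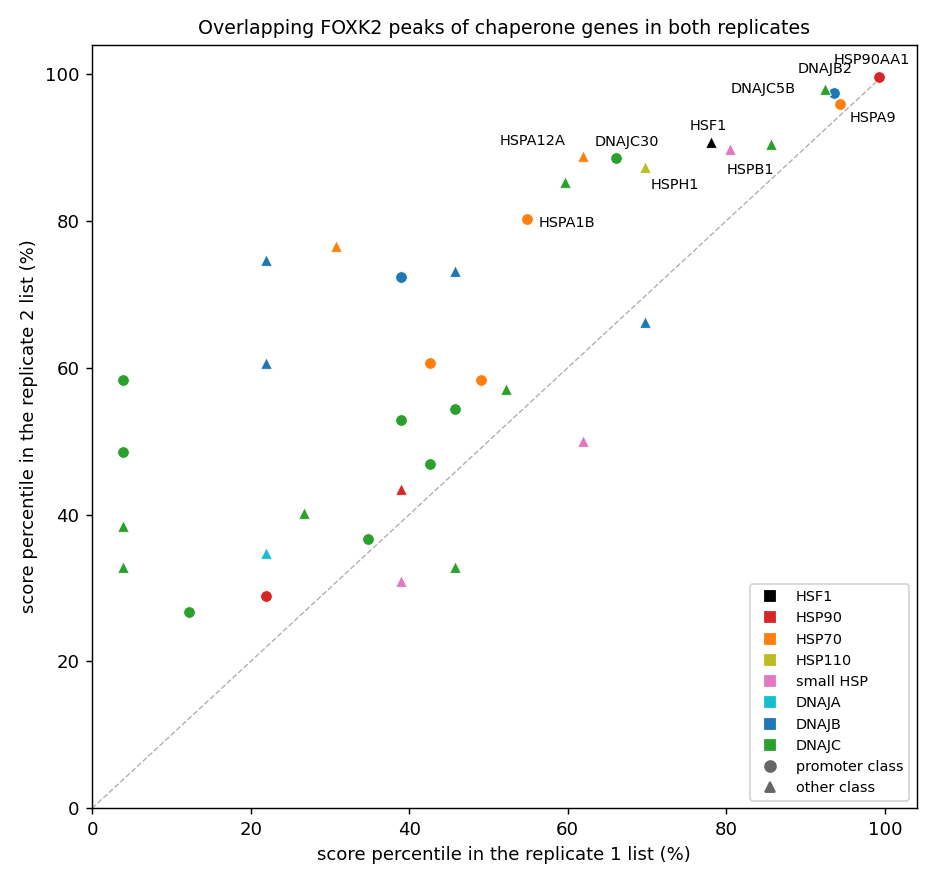
Score percentile of overlapping peaks in replicate 1 (x axis, %) and replicate 2 (y axis, %) for the 37 pairs, coloured by family, with circles for promoter peaks and triangles for other classes. The dashed line marks equal percentiles, and HSP90AA1 stands at 99.3 and 99.6 in the upper corner with DNAJB2, HSPA9 and a DNAJC5B peak next to it.

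HSF1, the master regulator of the heat shock response, had a peak in its first intron in both replicates. The peak centres were 916 and 907 bp downstream of the assigned start, with scores of 8.68 (percentile 78.1) in replicate 1 and 16.8 (percentile 90.7) in replicate 2. Both peaks held TGTTTAC, 18 and 27 bp from their centres, and GENCODE places a further transcript start of HSF1 just downstream. In replicate 2 a second peak, with a score of 18.7 (percentile 93.1), lay at -149 bp from the canonical HSF1 start. That peak was assigned to BOP1, a ribosome biogenesis gene that runs in the opposite direction, and replicate 1 had no peak there. HSF1 lies on chromosome 8, whose peaks ranked high in both lists, with median percentiles of 75.6 and 74.6, and the part of the chromosome in these ranks was not tested.

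HSP90AA1, which encodes the stress-inducible cytosolic HSP90, had the best-ranked pair of the set. Its peak at chr14:102139645-102139855 scored 30.2 in replicate 1 (rank 82 of 12471), and its partner at chr14:102139627-102139883 scored 53.5 in replicate 2 (rank 122 of 27281). Scores under 10 came in whole steps, and by the same step the pair held about 160 and 360, against medians of 31 and 49 in the lists. Both centres were within 8 bp of the heptamer shown above. The pair did not lie at the canonical HSP90AA1 start but at -52706 and -52711 bp from it, at the first exon of a longer transcript that shares a divergent promoter with WDR20. No peak of either replicate lay from 1000 bp before to 100 bp after the canonical start. HSP90AA1 also had 4 weaker peaks that did not overlap between the replicates, with percentiles from 12.2 to 34.8.

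HSP90AB1, the constitutive HSP90 of the cytosol, had 2 overlapping pairs, each below the median rank of its list. The promoter pair scored 4.53 and 5.50 (percentiles 21.9 and 28.9), 56 and 60 bp after the assigned start. A pair of higher rank lay upstream of the gene at -8539 and -8551 bp, with scores of 5.28 and 6.69 (percentiles 38.9 and 43.5). Both members of this upstream pair held TGACTCA, the site of the AP-1 factors, and none of the 4 peaks held TGTTTAC. The pseudogene HSP90AB4P had 1 peak in replicate 2 alone, with a score of 8.77 and the heptamer at its centre.

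Among the HSP70 genes, HSPA9, the mitochondrial HSP70 known as mortalin, had the strongest promoter peak. Its scores were 14.3 in replicate 1 and 22.9 in replicate 2 (percentiles 94.4 and 95.9), at -190 and -197 bp from the assigned start, with centres 7 bp apart. Neither peak held the forkhead heptamer, the AP-1 site or a heat shock element. By assignment 5 of the 13 protein-coding HSP70 genes had a peak in replicate 1 (38.5%, 17.7% to 64.5%), beside 30.6% of all protein-coding genes, and 12 in replicate 2 (92.3%, 66.7% to 98.6%), beside 50.6%. In replicate 2 the DNAJA genes had 2 of 4, the DNAJB genes 5 of 10, the DNAJC genes 14 of 27, the small heat shock genes 4 of 8, HSPD1, HSPE1 and HSPE1-MOB4 0 of 3, and the HSP90 genes 2 of 2. The counts in replicate 1, in the same order, were 3 of 4, 4 of 10, 10 of 27, 2 of 8, 1 of 3 and 2 of 2. Differences between families were not tested.

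The stress-inducible pair HSPA1A and HSPA1B gave unequal results. HSPA1B had a promoter peak in both replicates, with scores of 6.23 and 12.0 (percentiles 54.9 and 80.2), at -352 and -382 bp from the assigned start. A heat shock element of 2 units lay in both of these peaks. No peak was assigned to HSPA1A. A replicate 2 peak at chr6:31815071-31815327, with a score of 4.61 (percentile 16.1), was annotated to the HSPA1A transcript but assigned to HSPA1L, the testis-enriched gene that faces it, and its centre lay at -344 bp from the HSPA1A start. The RefSeq promoters of HSPA1A and HSPA1B matched at 277 of 300 bases (92.3%). The HSPA1B promoter compared, chr6:31827488-31827787, starts where the replicate 1 peak ends and lies outside the replicate 2 peak. The likeness of the sequence under the HSPA1B peaks to that at HSPA1A was therefore not measured. Every stretch of 50 bases, the read length of the study, in the HSPA1B peaks occurred once on the chromosomes searched, alternate haplotypes left out. The same held for the stretches in the peak assigned to HSPA1L.

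HSPA4 and HSPH1 belong to the HSP110 group of nucleotide exchange factors, although HSPA4 is counted with the HSP70 genes here by its symbol. HSPA4 had a promoter pair with scores of 5.85 and 8.18, whose centres were 208 bp apart, the widest spacing of any pair in the set. It also had a pair 118872 and 118989 bp downstream, with scores of 4.90 and 11.2, that held the heptamer. Both peaks of that pair were annotated to a LINE repeat. HSPH1 had its only overlapping pair in intergenic sequence at -10386 and -10395 bp, with scores of 7.55 and 14.7 (percentiles 69.8 and 87.3) and a heat shock element of 2 units in both. Replicate 2 added HSPH1 peaks at -81 bp and in the 5′ UTR, with scores of 10.3 and 8.77, which replicate 1 lacked.

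HSPA14, a ribosome-associated HSP70, had a promoter pair with scores of 5.47 and 8.48. HSPA12A, a distant HSP70 relative, had an intronic pair with scores of 6.79 and 15.6 (percentiles 61.9 and 88.9), centres 1 bp apart, and both TGTTTAC and a heat shock element in each peak. In replicate 2 alone, promoter peaks stood at the testis-enriched HSPA2 (score 7.88), at HSPA13 (7.44) and at HSPA4L (7.29). HSPA8, the constitutive HSC70, had 3 peaks in replicate 2 alone, at -21515 to -49303 bp. The highest of these scored 15.6 (percentile 88.9) and lay in an intron of CLMP, just before a transcript start of that gene, and the HSPA8 promoter had no peak in either replicate.

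The mitochondrial chaperonin genes HSPD1 and HSPE1 share a divergent promoter. A peak at chr2:197499833-197500043 lay there in replicate 1, with a score of 6.79 (percentile 61.9), and was assigned to HSPD1, and replicate 2 had no peak at it. HSPE1 was the nearest gene of no peak. The small heat shock genes had no peak at a transcript start in either replicate. HSPB1, which encodes HSP27, had 2 intergenic pairs, of which the stronger scored 9.05 and 16.2 (percentiles 80.5 and 89.8) at -10987 and -10948 bp. The other HSPB1 pair scored 6.79 and 7.29 at 15633 and 15653 bp downstream. HSPB3 had a low-ranked pair with scores of 5.28 and 5.65, HSPB8 and HSPB9 had 1 peak each in replicate 2, and HSPB2, HSPB6 and HSPB7 had none.

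Among the DNAJB genes, which supply clients to HSP70, DNAJB2 stood apart. This J protein, enriched in neurons, had a promoter pair with scores of 13.8 and 27.4 (percentiles 93.6 and 97.4) at -105 and -217 bp. DNAJB12, a J protein of the ER membrane, had a promoter pair with scores of 5.28 and 10.3. DNAJB4 had a pair at its start with scores of 4.53 and 8.48 and a heat shock element in both. DNAJB1, the main stress-inducible J protein and a partner of HSPA1A, had a promoter peak in replicate 2 alone, with a score of 9.96 (percentile 70.8).

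DNAJB6, a suppressor of polyglutamine aggregation, had 2 overlapping pairs away from its promoter. The intronic pair scored 4.53 and 10.7 (percentiles 21.9 and 74.6) and held both heptamers shown above. The intergenic pair scored 5.66 and 10.4 at -27499 and -27520 bp. A promoter peak with a score of 6.84 appeared in replicate 2 alone. DNAJB5, DNAJB7, DNAJB8, DNAJB13 and DNAJB14 had no peak, while the antisense transcript DNAJB8-AS1 had an intergenic pair with scores of 7.55 and 9.22.

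The DNAJA genes encode J proteins most like the bacterial DnaJ. DNAJA1, the cytosolic member that works with HSPA8, had a low-ranked pair in intron 3, with scores of 4.53 and 5.95 and the heptamer in both. DNAJA2 had an intergenic peak in replicate 1 and a promoter peak with a score of 10.1 in replicate 2. DNAJA3, the mitochondrial member, had a promoter peak in replicate 1 alone with a score of 5.85, and DNAJA4 had no peak.

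The DNAJC genes are the most varied J proteins. Promoter pairs were present at DNAJC11, a mitochondrial protein (4.15 and 5.35), DNAJC12, a co-chaperone of aromatic amino acid hydroxylases (5.09 and 6.10), DNAJC16 (5.28 and 7.58), DNAJC25 (5.47 and 6.99), and DNAJC6, which encodes the clathrin-uncoating protein auxilin (3.77 and 7.14), the bracketed values being scores in replicates 1 and 2. All 5 pairs ranked below the 53rd percentile in both lists. Only DNAJC12 and DNAJC6 had TGTTTAC in their promoter pairs. DNAJC5B, a relative of the cysteine string protein, was different. It had 3 overlapping pairs in its first intron, the most of any gene in the set, and all 6 peaks held the heptamer. The strongest DNAJC5B pair scored 12.8 and 29.0 (percentiles 92.4 and 97.9), and the gene lies on chromosome 8, as HSF1 does. With the peaks of that chromosome left out, the median percentile of the set was 40.7 in replicate 1 and 50 in replicate 2.

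Further DNAJC pairs lay outside the promoter class of the deposited annotation or were split between neighbours. DNAJC12 had a second pair at -11336 and -11344 bp, with scores of 5.66 and 5.80. DNAJC21, a factor of ribosome biogenesis, had pairs in its 3′ UTR (6.04 and 8.03) and at its transcript end (3.77 and 5.80). DNAJC24 had an intronic pair (4.72 and 6.39), and DNAJC2, the ribosome-associated MPP11, a pair in its 5′ UTR (3.77 and 6.25). The DNAJC2 centres lay 23 and 36 bp after its canonical start. At the divergent promoter of DNAJC9 and DNAJC9-AS1, the replicate 1 peak was assigned to DNAJC9 with a score of 3.77 and the overlapping replicate 2 peak to DNAJC9-AS1 with a score of 8.18. The second DNAJC9-AS1 peak of replicate 1 (5.66) overlapped a replicate 2 peak assigned to MRPS16.

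DNAJC30 and DNAJC19 were named as replicate 2 genes alone with peaks at or above the 75th percentile of that list. DNAJC30, a mitochondrial J protein gene, had a promoter peak with a score of 15.3 (percentile 88.5) in replicate 2, and the overlapping replicate 1 peak, with a score of 7.17 (percentile 66.1), was assigned to the divergent BUD23. DNAJC19, a subunit of the mitochondrial import motor, had a promoter peak in replicate 2 alone with a score of 12.2 (percentile 80.8). By assignment alone, 14 genes had a promoter peak in both replicates (28%, 17.5% to 41.7%), beside 14.1% of all genes in either list. These were DNAJB2, DNAJB12, DNAJC6, DNAJC9-AS1, DNAJC11, DNAJC12, DNAJC16, DNAJC25, HSP90AA1, HSP90AB1, HSPA1B, HSPA4, HSPA9 and HSPA14. With lists of equal length the count was 8 of the 42 genes then named (19%, 9.98% to 33.3%), beside 17.2% of all genes, which that interval held.

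The promoter count was repeated from GENCODE transcript starts, which do not depend on the assigned gene. Of 69 protein-coding genes of the set, 44 had an assigned peak (63.8%, 52% to 74.1%), beside 53.2% of all protein-coding genes, and 25 had none. A peak centre lay from 1000 bp before to 100 bp after a transcript start for 24 genes in replicate 1 and 37 in replicate 2, and for 20 of them in each (29.0%, 19.6% to 40.6%), beside 14.8% of all 20007 protein-coding genes. At canonical starts the count was 16 (23.2%, 14.8% to 34.4%), beside 11.5%. Both intervals lay above the share of all genes, but this did not hold with fewer peaks. In the higher-scoring part of each list 8 of 69 genes had a peak at a start in both replicates (11.6%, 5.99% to 21.2%), beside 10.1% of all genes. With lists of equal length there were 12 (17.4%, 10.2% to 28%), beside 12.6%, and both of these intervals held the share of all genes. Genes added by this count were DNAJB4, DNAJC2, DNAJC9, DNAJC25-GNG10, DNAJC30, HSF1 and HSPD1, and the HSPD1 entry rests on a remote start next to MOB4, at -16845 and -16822 bp from the canonical one. DNAJC6 and HSP90AA1 also entered through remote starts, and the highest-scoring DNAJC6 peaks at a start lay at -55375 bp in replicate 1 and -44830 bp in replicate 2. DNAJC25 and DNAJC25-GNG10 share a start region and their peaks.

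By family, 4 of 13 HSP70 genes, 2 of 2 HSP90 genes, 3 of 10 DNAJB genes and 9 of 27 DNAJC genes had a peak at a start in both replicates, and 0 of 4 DNAJA genes and 0 of 8 small heat shock genes. HSF1 and HSPD1 complete the 20, and HSPH1 had a peak at a start in replicate 2 alone. A peak at a start in both replicates was found for 14.8% of all protein-coding genes, and differences between families were not tested. In replicate 2 alone, peaks stood at a start of 17 further genes (24.6%, 16% to 36%), beside 16.3% of all protein-coding genes, an interval that held that share. They included HSPA1A, HSPH1, DNAJB1, DNAJB6 and DNAJC27, whose peak was assigned to DNAJC27-AS1, and HSPA12A, whose peak lay at a remote start 60014 bp after the canonical one and was assigned to C10orf82. Peaks at DNAJC24 and DNAJC7 in replicate 2 had been assigned to the facing genes DCDC1 and NKIRAS2.

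**Figure D3:**
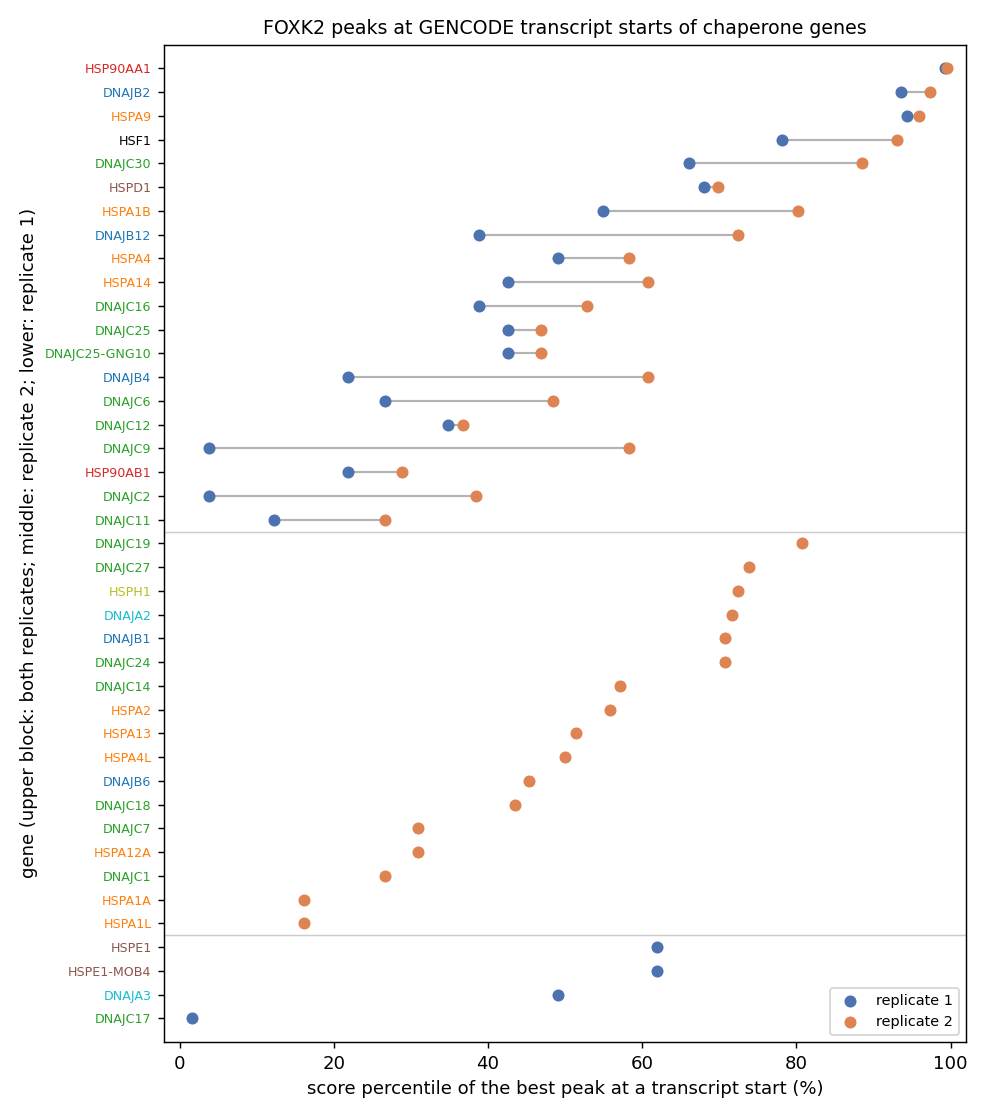
Score percentile (x axis, %) of the best peak at a GENCODE transcript start for each gene (y axis, coloured by family), with replicate 1 in blue, replicate 2 in orange and a grey line joining both. The upper block holds the 20 genes with a peak in both replicates, from HSP90AA1 down to DNAJC11, the middle block the 17 genes of replicate 2 alone and the lower block the 4 genes of replicate 1 alone.

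Shares of the forkhead heptamer in these peaks were near those of the whole lists. In replicate 1, 14 of 44 peaks had TGTTTAC on 1 of the strands at most 100 bp from the centre (31.8%, 20% to 46.6%), beside 30.5% of all peaks. In replicate 2 it lay in 22 of 83 (26.5%, 18.2% to 36.9%), beside 28.2%. Control windows 2000 bp to each side of the same peaks held it in 2.27% and 3.61%. Among promoter peaks it was in 3 of 17 (17.6%, 6.19% to 41%) and 3 of 30 (10%, 3.46% to 25.6%), beside 14.4% and 10.9% of all promoter peaks. Outside promoters it was in 11 of 27 (40.7%, 24.5% to 59.3%) and 19 of 53 (35.8%, 24.3% to 49.3%), beside 35% and 32% of all peaks there, and the difference between the classes was not tested. A heptamer peak in both replicates was found for 10 of the 50 genes (20%), beside 19.6% of all genes, namely DNAJA1, DNAJB6, DNAJC5B, DNAJC6, DNAJC12, DNAJC21, HSF1, HSP90AA1, HSPA4 and HSPA12A. The DNAJC21 heptamers lay at different places in each replicate, and for the other 9 genes heptamer peaks overlapped. Of 15 sites in replicate 1, 8 lay within 20 bp of the peak centre, as did 11 of 23 in replicate 2 (53.3% and 47.8%, beside 48.3% and 52.0% of the sites in all peaks). With chromosome 8 left out, TGTTTAC was in 25% of 40 peaks of the set in replicate 1 and 22.8% of 79 in replicate 2. The same shares over all peaks outside that chromosome were not counted.

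**Figure D4:**
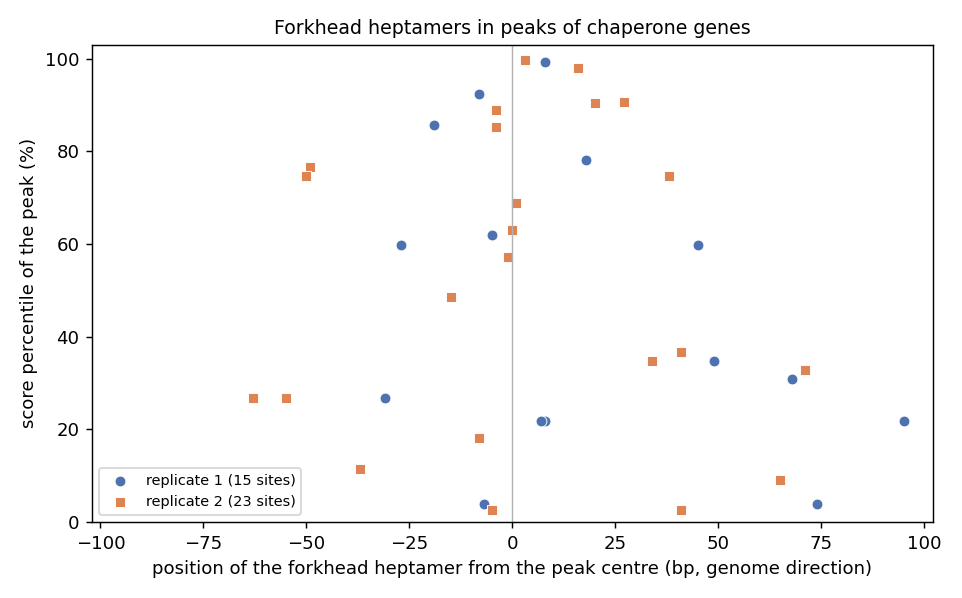
Position of each forkhead heptamer from the centre of its peak (x axis, bp) against the score percentile of that peak (y axis, %), for the 15 sites of replicate 1 (blue circles) and the 23 sites of replicate 2 (orange squares). Sites of the HSP90AA1 pair stand 8 and 3 bp from the centre at the top of the plot.

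Shares of heat shock elements under the peaks were near those of the windows beside them. An element of 2 units (GAANNTTC or TTCNNGAA, each its own reverse complement) was found up to 100 bp from the centre in 7 of 44 peaks of replicate 1 (15.9%, 7.93% to 29.4%) and in 8 of 83 of replicate 2 (9.64%, 4.97% to 17.9%). All peaks held it in 10.4% and 10.8%, and control windows of the chaperone gene peaks in 12.5% and 10.2%. DNAJB4, HSPA1B, HSPA12A, HSPA14 and HSPH1 had such peaks in both replicates, 5 of the 50 genes (10%, 4.35% to 21.4%), beside 5.74% of all genes. The AP-1 site TGACTCA was in 5 of 44 peaks (11.4%, 4.95% to 24%) beside 16.4% of all peaks, and in 11 of 83 (13.3%, 7.56% to 22.2%) beside 16.6%. None of the 17 and 30 promoter peaks held it, and all promoter peaks held it in 3.88% and 3.36%.

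**Figure D5:**
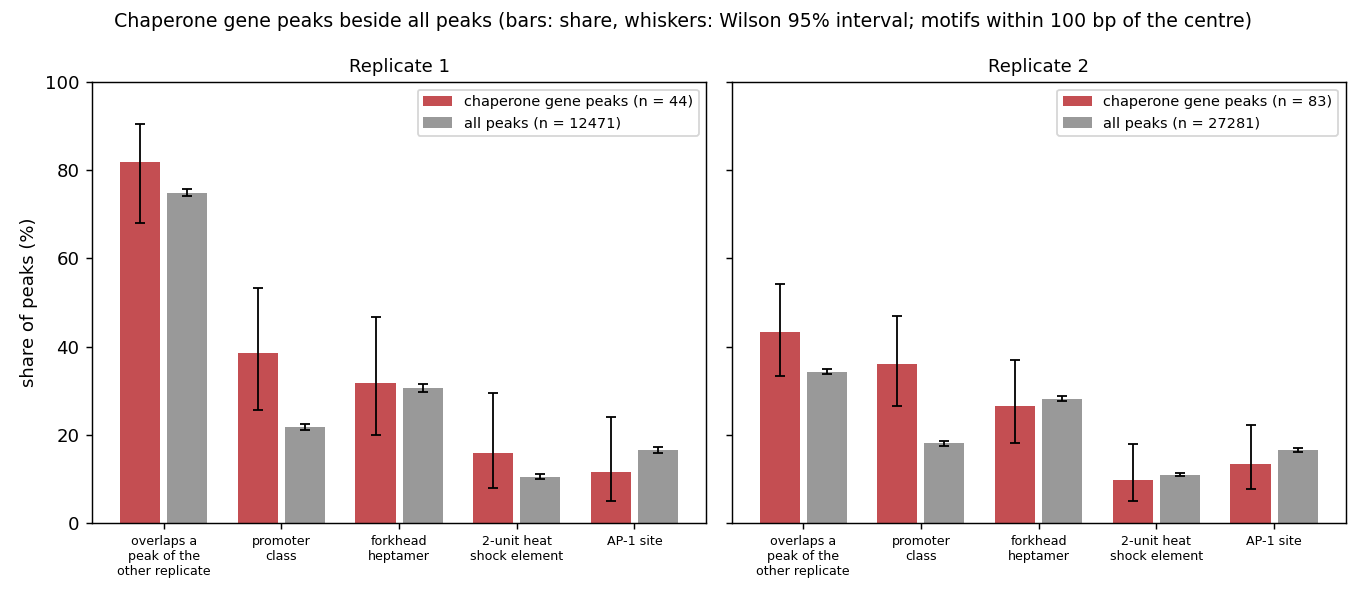
Share of peaks (y axis, %, from 0) with 5 properties (x axis) for the chaperone gene peaks in red and all peaks in grey, replicate 1 on the left and replicate 2 on the right. Whiskers are Wilson 95% intervals, and the promoter class is the property whose red interval lies above the grey bar in both replicates.

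Complete heat shock elements of 3 units were then set against the peaks at the promoters themselves. In the RefSeq table of hg38 promoters, from 250 bases before to 50 after the start, 95 promoters of 72 symbols matched the set, and they included 60 of the 69 protein-coding genes. An element of 3 units, each inverted against the next and 2 bases from it, was in 7 of the 95 (7.37%, 3.61% to 14.4%), beside 0.490% of all 35116 RefSeq promoters. The element of 2 units that it contains was in 25 of 95 (26.3%), beside 13.5%, and TGTTTAC was in 3 of 95 (3.16%), beside 3.42%. The 7 windows, shown so that peak positions can be set against them, are sequence matches only, since HSF1 binding was not measured. They are read on the strand of the gene, with elements in capitals. HSP90AB1 and HSPA8 each had a second element of 3 units in the same promoter, which is not shown, and the 2 of HSPD1 overlap.
DNAJA1: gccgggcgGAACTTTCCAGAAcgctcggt
DNAJB6: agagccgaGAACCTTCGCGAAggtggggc
HSP90AA1: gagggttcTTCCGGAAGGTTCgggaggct
HSP90AB1: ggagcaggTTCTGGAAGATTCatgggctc
HSPA6: cggaaaggTTCGCGAAAGTTCgcggcggc
HSPA8: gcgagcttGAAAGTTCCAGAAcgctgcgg
HSPD1: gcattTTCTGGAAAGTTCTGGAAccg
These lie at chr9:33025268-33025296 (plus), chr7:157336865-157336893 (plus), chr14:102087112-102087140 (minus), chr6:44247770-44247798 (plus), chr1:161524458-161524486 (plus), chr11:123062346-123062374 (minus) and chr2:197500065-197500090 (minus).

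Of the 7 promoters with an element of 3 units, FOXK2 peaks overlapped that of DNAJB6 in replicate 2 and that of HSPD1 in replicate 1, and none in both replicates. The other 5, of DNAJA1, HSPA6, HSPA8, the proximal HSP90AA1 start and the HSP90AB1 start with these elements, had no peak in either replicate. Another HSP90AB1 promoter of the table, at chr6:44246851-44247150 and without an element of 3 units, is the one that peaks of both replicates overlapped. Of the other 88 promoters, 16 were overlapped in both replicates and 49 in neither. The same shares over all RefSeq promoters were not counted, and the difference between the 7 and the 88 was not tested. Under the peaks themselves, no peak of the 44 in replicate 1 and 1 of 83 in replicate 2 (1.2%) held an element of 3 units in that window, beside 0.208% and 0.275% of all peaks. That peak is the one at the DNAJB6 promoter, with a percentile of 45.3.

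The partners of these chaperones were counted from 5 lists of 53 genes. By transcript starts, 16 of the 53 had a FOXK2 peak in both replicates (30.2%), close to the 29.0% of the chaperone genes and beside 14.8% of all protein-coding genes. HSP90 and HSP70 cochaperones accounted for 8 of 24, the cytosolic chaperonin TRiC for 3 of 8, prefoldin, which hands clients to TRiC, for 2 of 6, mitochondrial partners for 3 of 10, and the other HSF genes and HSF regulators for 0 of 5. CLPX, the unfoldase of the mitochondrial ClpXP protease, had the highest percentiles of the 16 genes in replicate 1, with 98.8 and 99.5 for an overlapping pair that the deposited annotation placed in an intron, and it was chosen after its values were seen. Among partner genes with a peak of the deposited promoter class in both lists, PFDN4, a prefoldin subunit, ranked highest, with scores of 23.8 and 51.6 (percentiles 98.6 and 99.5). TCP1, a TRiC subunit, followed with 16.6 and 29.1 (percentiles 96.3 and 97.9), and HSPBAP1 with 12.3 and 25.1 (percentiles 91.4 and 96.8).

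By assignment 10 of the 53 partner genes had a promoter peak in both replicates (18.9%, 10.6% to 31.4%), beside 9.08% of all protein-coding genes. The remaining 7 included CCT5, another TRiC subunit (6.04 and 14.1), and LONP1, the mitochondrial Lon protease (4.34 and 12.0). They also included CDC37L1, an HSP90 cochaperone (7.17 and 16.4), NUDC (5.66 and 11.3) and BAG6 (4.90 and 6.54). The HSP70 exchange factors BAG1 (6.60 and 9.37) and BAG5 (5.47 and 8.63) complete them, the bracketed values being scores in replicates 1 and 2. The BAG5 peaks did not overlap between the replicates. Over the promoter peaks of all 53 partner genes TGTTTAC was in 0 of 14 in replicate 1 (0% to 21.5%) and 1 of 22 in replicate 2 (4.55%, 0.807% to 21.8%), intervals that held the 14.4% and 10.9% of all promoter peaks. The peak with the heptamer was that of PFDN6, a prefoldin subunit, with a score of 25.4 (percentile 96.9), and it was chosen after its values were seen.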

How the data were processed

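The peak lists of 2 FOXK2 ChIP-seq replicates of OVCAR5 cells were analysed. According to the study's methods, the authors mapped single-end 50-bp reads to hg38 with Bowtie2 2.2.6 and called peaks with HOMER 4.10, versions that the submitters' processing notes also give. Per the file headers, peaks were annotated with HOMER's annotatePeaks program. The deposited score of a peak is scaled to its library, so it was turned into a percentile of its own list, and a deposited fraction, the focus ratio, gives the tags on the expected side of the centre (median 0.746 and 0.737 in the chaperone gene peaks). All scores under 10 lay within 0.01 of a whole multiple of 0.1886 in replicate 1 and 0.1487 in replicate 2. Higher scores were not checked in this way. The weakest peaks held 16 and 21 steps. Library totals were not used here. The labels call the samples biological duplicates.

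Genes were taken as deposited, at any distance, and no score threshold was added. Peaks overlapped when they shared at least 1 bp. Both strands were searched for motifs up to 100 bp from the centre, and in control windows 2000 bp to each side. GENCODE 44 gave transcript starts, and every peak lay within the chromosome lengths of the hg38 reference. RefSeq hg38 promoters ran from 250 bases before to 50 after the start. Stretches of 50 bases were looked up in hg38 without alternate haplotypes.

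The members and lists were chosen with earlier results of these data known. Genes named in the text were the 10 with the best overlapping pair, 16 main chaperone genes, those with promoter peaks in both replicates, the 5 with most overlapping pairs, those of a single replicate at or above the 75th percentile, and partner genes with promoter peaks in both replicates. Where further genes of the set are named, they are given to complete a count and were chosen after their values were seen. Alternatives were peaks at or above the median score, the longer list limited to the length of the shorter, leaving out a replicate, limits on distance, stricter overlap, other promoter and motif windows, other motifs, protein-coding genes only and the ER chaperones added. Canonical starts only and chromosome 8 left out were chosen after seeing the data. Simulated peaks and windows with planted overlaps and motifs were used as a check, and all planted ones were recovered. Input libraries were not analysed here. One sequence comparison is not reported here. Python 3.11.15 was used with numpy 2.4.6, pandas 2.3.3, scipy 1.17.1, pysam 0.24.0, Biopython 1.88 and matplotlib 3.10.9.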

Additional observations from a re-analysis of the deposited data

How the results depend on the processing

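Of 89 values recomputed under other settings, 67 stayed within the 95% interval of the reported share, within 1.5 times the reported count or within the spread of the reported medians. No paired analysis was possible because the peak lists hold 1 condition and the input libraries that share its replicate numbers were not analysed here. Taking the higher-scoring part of each list left 14 of 36 genes with a peak in both replicates (38.9%, all genes 51.5%), 5 with a promoter peak in both (13.9%, all genes 15.8%) and 11.6% by transcript starts (all genes 10.1%). Lists of equal length left 8 of 42 genes with a promoter peak in both (19%, all genes 17.2%) and 17.4% by transcript starts (all genes 12.6%), and overlap shares of 50% and 59.5%. Both settings use fewer peaks, and under both the interval of the promoter gene shares held the share of all genes. In replicate 2 they gave promoter shares of 47.7% and 48.6%, beside 23.6% and 24.2% of all peaks, and equal lists a median percentile of 39.7 (all peaks 50.2). In replicate 1 the higher-scoring part gave 36.8%, beside 25.6%. Leaving out 1 replicate gave 32 to 47 genes with a peak (64% and 94%, all genes 57.1% and 94.9%). It gave 17 to 30 genes with a promoter peak, for which the share of all genes was not counted. By transcript starts it gave 34.8% to 53.6%, beside 17.8% and 31.1% of all genes by the same starts.

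By GENCODE transcript starts 54.5% of replicate 1 peaks and 47.0% of replicate 2 peaks were at promoters, beside 29.5% and 25.2% of all peaks. TGTTTA in place of TGTTTAC was in 41.0% of replicate 2 peaks, beside 43.4% of all peaks. Heat shock elements of 2 units were in 6.82% of replicate 1 peaks within 50 bp of the centre (all peaks 5.25%), and in 29.5% and 26.5% of peaks in replicates 1 and 2 within 250 bp (all peaks 25.6% in both). Elements of 3 units were in 0% and 1.2% (all peaks 0.208% and 0.275%). Within 10000 bp of the start, the median percentile in replicate 2 was 55.8 (all peaks 58.3). The causes of these shifts were not tested. Of 20 values for the best-ranked genes, 17 stayed within the spread between replicates. The lowest scores of the set were 20 steps in replicate 1 and 25 in replicate 2, close to the 16 and 21 of the weakest peaks called. The part of library depth in this was not tested.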

Other observations

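Of the peaks of the set, 43 of 44 in replicate 1 and 81 of 83 in replicate 2 had every stretch of 50 bases once in hg38. The exceptions were the distal HSPA4 pair, with 84.6% and 91.3% of stretches found once, and the replicate 2 peak of HSPA6, a stress-inducible HSP70 gene, with 88.0%.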
